A study of Mus musculus with 64 samples.

Results

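The genes described here copy DNA and supply its building blocks: they load and open the replication helicase, synthesise and join the new strands, make deoxynucleotides, rebuild chromatin behind the fork and watch over the fork. The list holds 48 genes, and each was taken as the brightest Affymetrix probe set whose annotation gives that symbol alone. Of these, 45 were measured, among 18820 genes tested in all. Gins2, Rfc4 and Tyms were not analysed, because their probe sets are annotated together with Gse1, Eif4a2 and Tyms-ps. The cells were macrophages grown from femoral bone marrow of male mice aged 7 to 8 weeks, of the strains BALB/c and C57BL/6, kept in 10000 U/ml of the growth factor CSF1, also in the controls, and seeded at 200000 cells in each well of 24-well plates. On day 7 the stimulus was added: for BALB/c cells 10 U/ml of either IFN-beta or IFN-gamma, or 5 ng/ml of lipopolysaccharide (LPS, a component of the outer membrane of Gram-negative bacteria), and for C57BL/6 cells one of 3 doses of LPS, 50, 5 and 0.5 ng/ml. Wells were harvested after 1, 2, 4, 8 and 24 h, 2 for each group, and compared with 2 untreated wells of the same strain at 0 h, giving 64 arrays in 32 groups. All courses of a strain share the same 0 h wells, no untreated well was taken later, and C57BL/6 cells received no interferon, so a change with time in culture cannot be told apart from a response to the stimulus in any comparison with 0 h.

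CSF1 drives macrophages through the cell cycle, and both interferons and LPS are known to halt that proliferation. In a dividing cell Orc1, Orc6, Cdc6 and Cdt1 load the Mcm2 to Mcm7 ring onto DNA, Cdc7 with Dbf4 and Cdc45 with the GINS proteins turn it into a moving helicase, and DNA polymerases alpha, delta and epsilon then copy the strands with the sliding clamp Pcna. Most of these genes are transcribed in a wave as cells enter S phase, and E2F transcription factors are known regulators of many of them.

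Promoter sequences from RefSeq (build GRCm38.p6, 250 bases before to 50 bases after the annotated start) were matched for 40 of the 48 genes, 49 promoters in all. An E2F motif, searched as TTTCCCGC, TTTCGCGC, TTTGCCGC or TTTGGCGC on both strands, was found in 16 of those 40 genes (40%) and in 704 of 27025 genes with a promoter in the table (2.6%). The pentamer CCAAT, on both strands, was found in 24 of the 40 genes (60%) and in 41.1% of all genes, and the letters TTCGAA or TTTGAA, on both strands, in 10 (25%) and in 21.7%. A match is a description of the letters in this window and shows no binding. The following promoters belong to genes described below, chosen after their values were seen: Cdc6 fell early, Mcm5 went on falling to 24 h, Mcm6 differed between the interferons and between the strains, Pole2 partly came back in BALB/c cells, and Rrm2 had the largest mean fall at 24 h of LPS. They lie at chr11:98907901-98908200 on the plus strand (Cdc6), chr8:75109259-75109558 on the plus strand (Mcm5), chr1:128359656-128359955 on the minus strand (Mcm6), chr12:69228141-69228440 on the minus strand (Pole2) and chr12:24708004-24708303 on the plus strand (Rrm2), and are written 5′ to 3′ with the E2F motif matches in capitals. Cdc6 and Pole2 hold 1 match each, Mcm5 holds 2 and Mcm6 holds 3, some of them overlapping, while Rrm2 holds none and does hold a CCAAT.
Cdc6: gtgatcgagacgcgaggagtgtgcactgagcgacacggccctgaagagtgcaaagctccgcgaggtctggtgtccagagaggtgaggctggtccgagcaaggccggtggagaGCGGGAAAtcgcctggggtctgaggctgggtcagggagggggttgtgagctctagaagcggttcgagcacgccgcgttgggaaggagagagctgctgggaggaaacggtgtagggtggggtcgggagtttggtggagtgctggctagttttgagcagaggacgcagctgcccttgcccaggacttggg
Mcm5: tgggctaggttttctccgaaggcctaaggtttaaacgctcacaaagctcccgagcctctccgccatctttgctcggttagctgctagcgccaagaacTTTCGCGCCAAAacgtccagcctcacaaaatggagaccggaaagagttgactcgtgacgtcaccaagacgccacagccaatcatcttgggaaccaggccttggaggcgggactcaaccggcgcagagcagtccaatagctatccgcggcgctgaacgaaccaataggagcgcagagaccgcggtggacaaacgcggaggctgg
Mcm6: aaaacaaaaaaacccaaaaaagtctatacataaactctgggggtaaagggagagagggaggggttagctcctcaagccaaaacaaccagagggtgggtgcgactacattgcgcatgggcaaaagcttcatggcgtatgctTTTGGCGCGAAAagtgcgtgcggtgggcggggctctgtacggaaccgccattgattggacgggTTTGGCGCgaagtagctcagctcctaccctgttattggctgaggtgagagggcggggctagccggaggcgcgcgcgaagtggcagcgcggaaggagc
Pole2: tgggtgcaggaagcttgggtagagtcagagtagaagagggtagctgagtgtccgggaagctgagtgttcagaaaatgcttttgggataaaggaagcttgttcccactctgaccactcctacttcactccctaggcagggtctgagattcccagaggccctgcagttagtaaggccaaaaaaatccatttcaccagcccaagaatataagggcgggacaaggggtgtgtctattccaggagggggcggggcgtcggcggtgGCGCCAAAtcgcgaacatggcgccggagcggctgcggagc
Rrm2: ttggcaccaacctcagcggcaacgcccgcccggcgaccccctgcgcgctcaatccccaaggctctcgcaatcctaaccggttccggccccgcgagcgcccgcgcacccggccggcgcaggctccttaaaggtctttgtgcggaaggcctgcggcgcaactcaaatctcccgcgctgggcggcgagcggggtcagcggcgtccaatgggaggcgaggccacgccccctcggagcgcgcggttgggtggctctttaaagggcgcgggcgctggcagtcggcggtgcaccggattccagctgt

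The arrays had median intensities from 25.6 to 29.0, and replicate wells correlated at r = 0.992 to 0.998 over the 18820 genes tested. Levels are log2 of the deposited intensity, differences are on the log2 scale, and ± gives the standard error of the fit with n = 2 wells in each group. A gene was called when the Benjamini-Hochberg adjusted p of limma's moderated test, over 18820 genes, was under 0.05. Nothing in the labels places the wells of a group in separate mice, so p-values measure only the spread between wells. All 6 macrophage markers (Adgre1, Csf1r, Cd68, Itgam, Lyz2 and Mertk) were above the dim level, 4.49 on the log2 scale, on every array, with a summed intensity of 26289 to 35172. T cell markers summed to 36 to 55 with Cd3d and Cd3g below the dim level on every array, and erythroid markers to 44 to 64 with Klf1 below it. B cell markers summed to 57 to 162, with Cd79a below the dim level and Cd79b above it on every array. Of the 4 progenitor markers only Kit was above the dim level on every array, so their sum need not show the course of each. Under LPS summed progenitor markers fell, as the replication genes did. They went from 388 at 0 h to 103 at 24 h in BALB/c cells, and from 350 to 125 at 50 ng/ml in C57BL/6 cells. Under IFN-beta they stood at 272 at 8 h and 280 at 24 h. Under IFN-gamma they went from 233 at 8 h to 168 at 24 h, while the replication gene median went from -0.94 to -0.28. Summed fibroblast markers rose under LPS, from 170 at 0 h to 724 at 8 h in BALB/c cells. At 50 ng/ml in C57BL/6 cells they rose from 135 to 269 by 8 h. Both rises came through Pdgfrb and Dcn, with Col1a2 at -0.25 and 0.00 on the log2 scale. The neutrophil and precursor markers spanned 116 to 335 over all arrays. Their group mean in C57BL/6 cells was 254 at 0 h and 313 at 4 h of 50 ng/ml. At 24 h of 50, 5 and 0.5 ng/ml it was 159, 151 and 179. In BALB/c cells it was 152 at 0 h and 145 at 24 h of LPS. The part of these cells in the results was not tested, and in bulk RNA fewer cycling cells and less RNA per cell cannot be told apart.

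Over probe sets without a gene, 11 arrays stood apart from the other 53, among them both wells of IFN-beta at 4 h, and this split the wells of 9 groups. In those 9 groups Rfc3 was higher in the array of the smaller set every time, by 0.73 on average (0.51 to 0.94), Dbf4 was higher by 0.64, and Pold1 and Chaf1a were lower every time, by means of -0.45 and -0.41. The median over the 45 genes was 0.09. A further well stood apart in another way: replicate 2 of C57BL/6 LPS 5 ng/ml at 24 h carried transcripts that mark BALB/c cells in these data, with H2-Ea at 6.19 against 4.29 in replicate 1 and Hal at 9.21 against 4.74. These markers were chosen after their values were seen. The replication genes were on average 0.29 higher in that well than in its replicate, and the main counts and medians that use it are given with and without it. Replicate 1 of C57BL/6 LPS 0.5 ng/ml at 24 h stood above the remaining C57BL/6 wells too, with Hal at 6.77 against 5.17 in replicate 2 and H2-Ea at 5.13 against 4.64.

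Under LPS the transcripts of all 45 measured replication genes were called lower by 24 h, in both strains and at all 3 doses, and the 4 h count was highest in BALB/c cells. In BALB/c cells 40 of 45 genes were called lower at 4 h (14.5% of all genes were), 44 at 8 h (21.1%) and 45 at 24 h (17.4%), with median differences of -0.78, -1.89 and -2.21 against medians over all genes of -0.07, -0.04 and -0.03. In C57BL/6 cells at 50 ng/ml the counts were 17 (8.98%), 42 (19.1%) and 45 (15.1%), with medians of -0.31, -1.41 and -2.09. At 5 ng/ml they were 19 (9.38%), 43 (18.2%) and 45 (14.2%), with medians of -0.35, -1.54 and -2.08. At 0.5 ng/ml they were 4 (3.34%), 43 (11.8%) and 45 (13.0%), with medians of -0.13, -1.17 and -1.86. At 24 h the fall was at least 1 on the log2 scale for 43 genes in BALB/c cells (5.54% of all genes) and for 44, 43 and 41 genes (4.99%, 4.50% and 3.78%) from the highest to the lowest dose in C57BL/6 cells. Without the C57BL/6 LPS 5 ng/ml well that carries BALB/c markers, 45 genes were still called at 24 h of that dose and the median was -2.15.

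**Figure D1:**
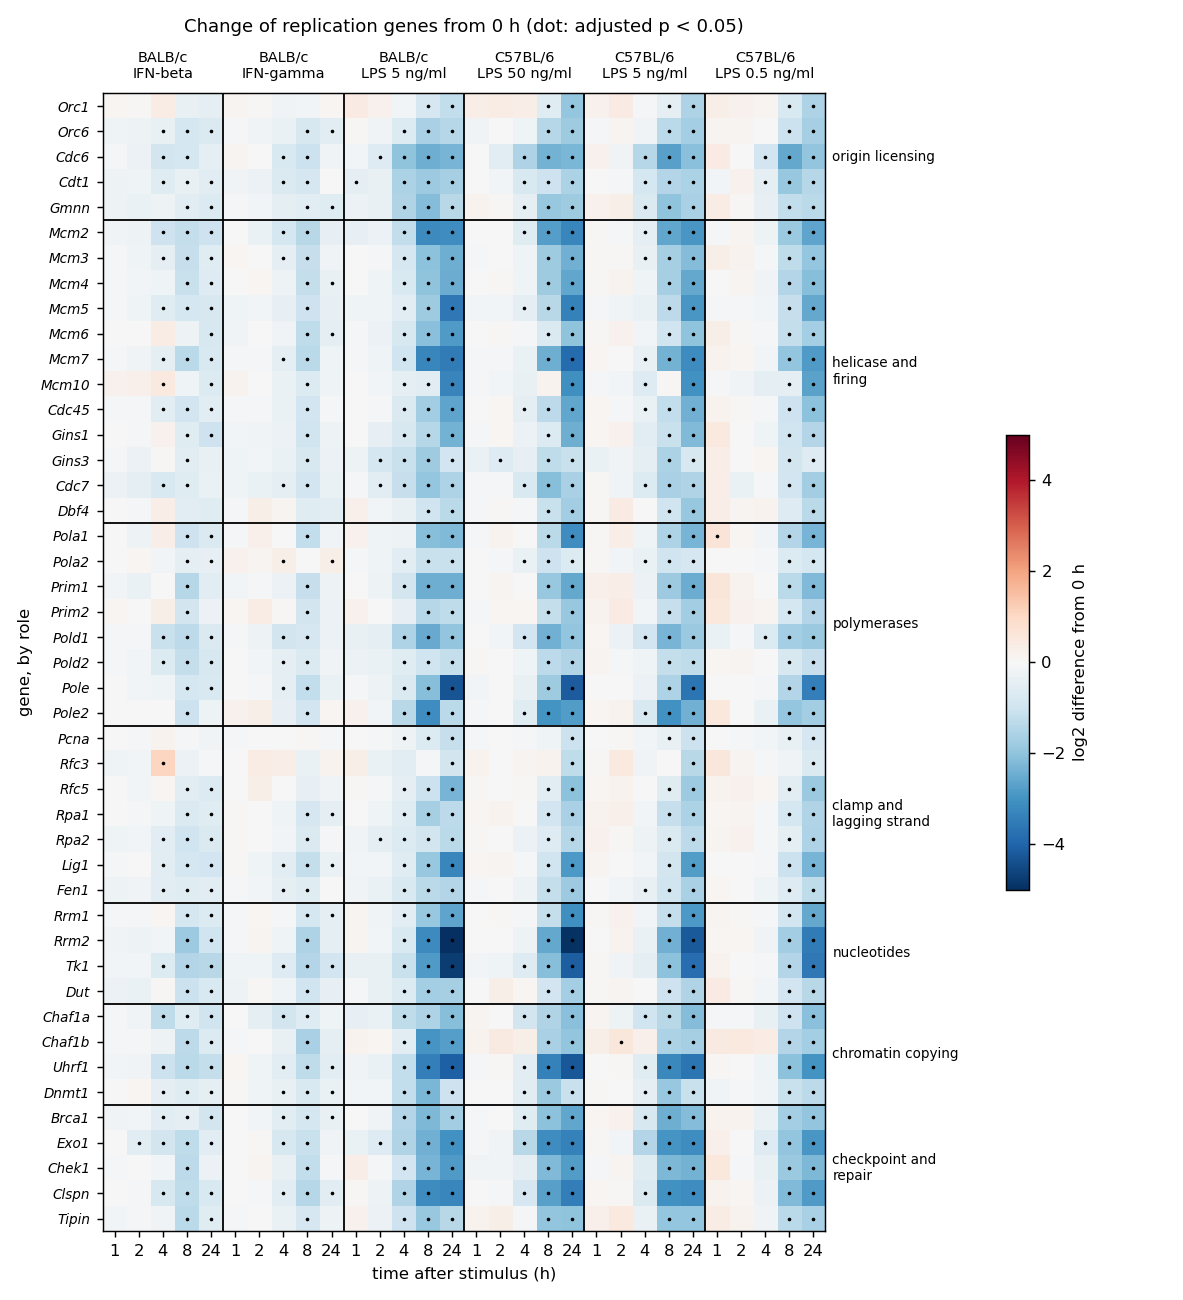
Heat map of the log2 difference from 0 h (colour, from -5 to 5) of the 45 measured genes (rows, grouped by role) at 1, 2, 4, 8 and 24 h in the 6 courses (columns), with a dot where the gene was called. Dots fill nearly the whole 8 h and 24 h columns of the LPS courses, and 39 genes are called at 8 h in each interferon course.

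In BALB/c cells 1 and 5 genes were called lower at 1 and 2 h of LPS, near the share of all genes at 1 h. Cdt1 was the gene called at 1 h, at 10.13 and 9.99 against 10.49 and 10.51 at 0 h (-0.44 ± 0.12, adjusted p = 0.027, with 1.91% of all genes called lower). It was not called at 2 h, at 10.17 and 10.11 (-0.36, adjusted p = 0.074), and stayed called from 4 h. At 2 h 5 genes were called (3.51% of all genes): the GINS subunit Gins3 (-0.86 ± 0.17), the exonuclease Exo1 (-0.65), Cdc6 (-0.64), the kinase Cdc7 (-0.55) and the single-strand binding subunit Rpa2 (-0.43). Counting the first time from which a gene stayed called lower through 24 h, 5 BALB/c genes date from 2 h, 35 from 4 h, 4 from 8 h and Rfc3 from 24 h. At 50 ng/ml in C57BL/6 cells 17 genes date from 4 h, 25 from 8 h and 3 from 24 h, at 5 ng/ml 18, 25 and 2, and at 0.5 ng/ml 4, 39 and 2. The 4 h counts in C57BL/6 cells were the least stable: without replicate 2 of the C57BL/6 0 h wells or without replicate 2 of the 50 ng/ml 4 h wells the 50 ng/ml count was 10 and 8, without the same 0 h well the 5 ng/ml count was 12, and leaving out any 1 of the 4 wells compared left 1 or 2 genes at 0.5 ng/ml. At 1 and 2 h, C57BL/6 cells gave 1 call lower, Gins3 at 2 h of 50 ng/ml (-0.66 ± 0.17, adjusted p = 0.011, 3.12% of all genes), and 2 calls higher, described with their roles below.

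**Figure D2:**
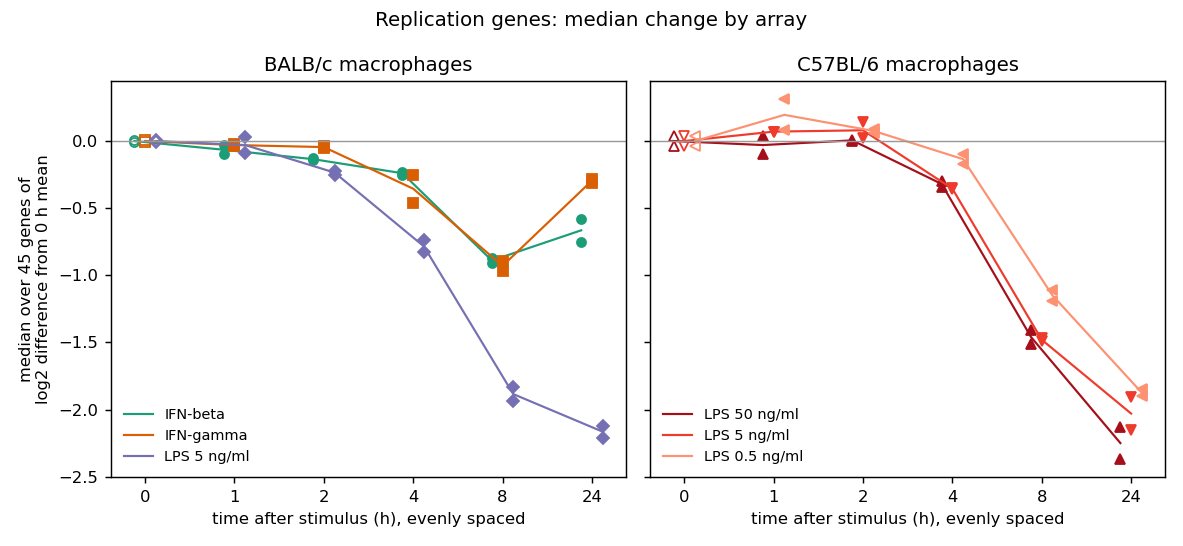
Median over the 45 genes of the log2 difference from the strain's 0 h mean, one point per array, against time after the stimulus (0 to 24 h, evenly spaced), with lines through the means of the 2 wells; open symbols are the shared 0 h wells. The LPS courses end between -1.85 and -2.37 at 24 h, while the IFN-gamma wells return to -0.28 and -0.31.

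Among the origin licensing genes, which mark and load replication origins, all 5 measured members were called lower at 8 and 24 h in each LPS course. Cdc6, the loader of the helicase ring, was called from 2 h in BALB/c cells and from 4 h at each dose in C57BL/6 cells. Its levels in BALB/c cells were 7.46 and 7.53 at 0 h, 5.52 and 5.43 at 4 h, 5.36 and 4.74 at 8 h and 5.10 and 5.24 at 24 h, so that the 4 h wells already lay far below both 0 h wells. The difference from 0 h was -2.02 ± 0.18 at 4 h (adjusted p = 1.8e-11) and -2.32 ± 0.18 at 24 h, and the 24 h and 8 h wells differed by 0.12, with a 95% interval of -0.25 to 0.50. In C57BL/6 cells Cdc6 stood at 7.36 and 7.72 at 0 h and at 5.24 and 5.10 after 8 h of 50 ng/ml, a difference of -2.36. Between 8 and 24 h it rose by 0.63 at 5 ng/ml (adjusted p = 0.0088, and by 0.85 without the well that carries BALB/c markers) and by 0.56 at 0.5 ng/ml (adjusted p = 0.029). Orc6, a subunit of the origin recognition complex, fell more slowly, from 8.43 and 8.32 to 7.66 and 7.70 at 4 h and 6.56 and 6.91 at 8 h in BALB/c cells, and stood at 7.02 and 6.85 at 24 h (-1.44 ± 0.13). Gmnn, the inhibitor of Cdt1, went from 6.13 and 5.83 to 4.56 and 4.66 at 24 h, and in all 3 C57BL/6 courses its 24 h mean lay under the dim level, so that its fall there is a lower bound. The other Gmnn probe set was dimmer, with a mean of 3.51, and correlated with the one used at r = 0.67.

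In the helicase and firing group all 12 measured genes were called lower at 24 h in each LPS course, with a median of -2.56 in BALB/c cells and of -2.51 and -2.32 at 50 and 5 ng/ml in C57BL/6 cells (-2.59 at 5 ng/ml without the well that carries BALB/c markers). Mcm7, a subunit of the helicase ring, fell from 10.66 and 10.60 to 7.29 and 7.47 at 8 h and 7.37 and 6.88 at 24 h in BALB/c cells (-3.51 ± 0.12 at 24 h, adjusted p = 7.9e-24). At 24 h of 50 ng/ml in C57BL/6 cells it read 6.80 and 6.76, down from 10.59 and 10.65. No treated well at 8 or 24 h overlapped the 0 h wells. Mcm5, its ring partner, fell later: the BALB/c levels were 11.02 and 10.95 at 0 h, 9.22 and 9.20 at 8 h and 7.66 and 7.17 at 24 h, and the step from 8 to 24 h alone was -1.79 ± 0.15 (adjusted p = 3.7e-12).

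Mcm10, which links the helicase to polymerase alpha, took most of its fall after 8 h. In C57BL/6 cells at 50 ng/ml it read 8.60 and 8.61 at 0 h and 8.78 and 8.78 at 8 h, and then 5.32 and 5.73 at 24 h. The difference from 0 h was 0.18 at 8 h, which did not pass the test (adjusted p = 0.44), and the step from 8 to 24 h was -3.26 ± 0.15 (9.55-fold, adjusted p = 2.5e-19), the largest such step among the 45 genes in that course. Mcm10 also took the largest step of the 45 in the other LPS courses, at -2.76 in BALB/c cells and -3.09 and -2.20 at 5 and 0.5 ng/ml (-3.42 at 5 ng/ml without the well that carries BALB/c markers). A smaller fall came before: Mcm10 was called lower in BALB/c cells at 4 h, at 8.18 and 8.07 (-0.48, adjusted p = 0.015), and at 8 h (-0.53, adjusted p = 0.0043). At 5 ng/ml in C57BL/6 cells it read 7.97 and 7.97 at 4 h (-0.63, adjusted p = 0.0021) and 8.68 and 8.67 at 8 h (0.07). At 0.5 ng/ml it was called at 8 h (-0.48, adjusted p = 0.017). Gins3 changed the least in this group at 24 h, from 7.66 and 7.64 to 6.53 and 6.89 in BALB/c cells (-0.94 ± 0.17). Its 8 h wells, at 5.85 and 5.93, lay below those of 24 h, and the rise between them was 0.82 ± 0.17 (adjusted p = 0.00021).

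All 8 polymerase genes were called lower at 8 and 24 h in each LPS course. Pole, the catalytic subunit of the leading-strand polymerase epsilon, stood at 9.05 and 9.00 at 0 h, 8.29 and 8.30 at 4 h, 6.92 and 6.91 at 8 h and 4.82 and 4.61 at 24 h in BALB/c cells. Each step lay outside the wells of the step before, and the 24 h difference was -4.31 ± 0.14 (adjusted p = 1.2e-24). Pole2, the second subunit of the same enzyme, took another course: its BALB/c wells read 8.04 and 7.98 at 0 h, 4.77 and 5.06 at 8 h and 6.59 and 6.73 at 24 h. The rise of Pole2 from 8 to 24 h was 1.75 ± 0.19 (3.36-fold, adjusted p = 2e-09), while Pole fell by 2.20 over the same hours. In C57BL/6 cells Pole2 rose by 0.62 from 8 to 24 h at 5 ng/ml (adjusted p = 0.013), a call that was lost without the well that carries BALB/c markers, and differed by 0.18 at 50 ng/ml and 0.22 at 0.5 ng/ml, which did not pass the test. Pola1, the catalytic subunit of polymerase alpha, fell from 7.93 and 7.93 to 5.84 and 5.78 at 8 h in BALB/c cells and stayed there, at 5.72 and 5.72 at 24 h. It was also the single gene called higher at 1 h, at 8.83 and 8.62 after 0.5 ng/ml against 8.00 and 8.16 at 0 h (0.64 ± 0.18, adjusted p = 0.031, 2.45% of all genes called higher). The well at 8.62 belongs to the set of 11 arrays, in which Pola1 was higher in 5 of the 9 split groups. With that set as a covariate the difference was 0.55, and without that well it was 0.75. Pola2, the regulatory subunit, had the smallest mean change of all 45 genes over the LPS courses: 9.76 and 9.74 became 8.72 and 8.58 at 24 h in BALB/c cells (-1.10 ± 0.09).

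Of the clamp and lagging-strand genes 6 of 7 were called lower at 4 h in BALB/c cells, but 0 of 7 at 50 ng/ml, 1 at 5 ng/ml and 0 at 0.5 ng/ml in C57BL/6 cells. All 7 were called at 24 h in each LPS course, with medians of -1.34 in BALB/c cells and -1.61, -1.59 and -1.51 in C57BL/6 cells (-1.60 at 5 ng/ml without the well that carries BALB/c markers). Lig1, the ligase that seals the lagging strand, fell from 9.24 and 9.29 to 7.44 and 7.32 at 8 h and 5.99 and 6.03 at 24 h in BALB/c cells (-3.25 ± 0.10, adjusted p = 1.8e-25). The clamp loader subunit Rfc5 went from 10.84 and 10.71 to 9.60 and 9.77 at 8 h and 8.66 and 8.21 at 24 h. Pcna itself moved little: 12.48 and 12.46 became 11.78 and 11.82 at 8 h and 11.23 and 11.44 at 24 h (-1.14 ± 0.10), and after 8 h of 50 ng/ml in C57BL/6 cells it read 12.29 and 12.26 against 12.48 and 12.47, which did not pass the test (-0.20, adjusted p = 0.14). A second Pcna probe set had the same mean as the first, 12.26, and followed it at r = 1.00, so it gives no separate check. Rfc3, another clamp loader subunit, was called in no LPS course at 8 h and in each at 24 h, at -0.91 ± 0.28 in BALB/c cells and -1.26, -1.37 and -0.74 in C57BL/6 cells (-1.47 at 5 ng/ml without the well that carries BALB/c markers). The 24 h wells of Rfc3 were 7.28 and 8.15 in BALB/c cells and 7.24 and 8.19 at 0.5 ng/ml in C57BL/6 cells. In both pairs the higher well belongs to the 11 arrays in which Rfc3 read high throughout.

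Among the nucleotide genes, Rrm2 and Tk1 had the largest mean changes of the 45 genes at 24 h over the 4 LPS courses. Rrm2 fell on average by 4.43, Tk1 by 4.06 and Dut by 1.56. Rrm2, the small subunit of ribonucleotide reductase, which makes deoxynucleotides and sets the pace of their supply, held 10.94 and 10.89 at 0 h, 10.18 and 10.09 at 4 h, 7.81 and 7.64 at 8 h and 5.54 and 6.19 at 24 h in BALB/c cells. That is a 24 h difference of -5.05 ± 0.22, a 33.1-fold lower signal (adjusted p = 3.9e-21). In C57BL/6 cells Rrm2 stood at 10.91 and 10.98 at 0 h and, at 24 h, at 6.00 and 6.00 after 50 ng/ml, 6.33 and 7.13 after 5 ng/ml and 7.69 and 7.18 after 0.5 ng/ml, falls of 30.8-fold, 18.5-fold and 11.4-fold. None of these wells overlapped the 0 h wells. The second of the 5 ng/ml wells is the one that carries BALB/c markers, and without it the difference was -4.61 in place of -4.21. Tk1, thymidine kinase, which salvages thymidine, went from 10.43 and 10.43 to 7.35 and 7.87 at 8 h and 5.54 and 5.87 at 24 h in BALB/c cells (26.5-fold, -4.73 ± 0.21), and a second Tk1 probe set followed it at r = 0.98. Dut, which removes dUTP from the pool, fell no further after 8 h in BALB/c cells, at 5.31 and 5.41 against 7.10 and 7.04 at 0 h and 5.40 and 5.41 at 24 h (-1.66 ± 0.19). At 50 ng/ml in C57BL/6 cells Dut went on from 5.97 and 6.13 at 8 h to 5.48 and 5.14 at 24 h (-0.74 ± 0.19, adjusted p = 0.0023). The steps at 5 and 0.5 ng/ml, -0.45 and -0.40, did not pass the test.

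Among the genes that copy chromatin and DNA methylation, the levels of 2 partners in maintenance methylation parted between 8 and 24 h. Uhrf1, which recruits the methyltransferase to new DNA, fell from 9.71 and 9.63 to 6.60 and 5.95 at 8 h and 5.61 and 5.55 at 24 h in BALB/c cells (-4.09 ± 0.15). Dnmt1, the maintenance methyltransferase, fell from 10.61 and 10.71 to 8.28 and 8.47 at 8 h and then stood at 9.86 and 9.39 at 24 h, so that both 24 h wells lay between the 8 h and the 0 h wells. Its rise from 8 to 24 h was 1.25 ± 0.12 in BALB/c cells (adjusted p = 1.6e-10) and 0.72 and 0.77 at 50 and 5 ng/ml in C57BL/6 cells (0.76 without the well that carries BALB/c markers), while at 0.5 ng/ml it differed by -0.20, which did not pass the test. Chaf1a, the large subunit of the histone chaperone that loads histones behind the fork, was already at 7.01 and 6.99 at 4 h in BALB/c cells, from 8.27 and 8.30, and reached 6.36 and 5.95 at 24 h (-2.13 ± 0.18). Its partner Chaf1b was the single gene called higher at 2 h, at 9.93 and 10.24 after 5 ng/ml in C57BL/6 cells against 9.49 and 9.56 (0.56 ± 0.17, adjusted p = 0.032, 3.02% of all genes called higher). The well at 10.24 belongs to the set of 11 arrays, in which Chaf1b was higher in each of the 9 split groups, by 0.39 on average. With that set as a covariate the difference was 0.37 (adjusted p = 0.013).

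All 5 checkpoint and repair genes were called lower at 4, 8 and 24 h in BALB/c cells and at 8 and 24 h in each C57BL/6 course. Clspn, which carries the signal of a stalled fork to the kinase Chek1, fell from 7.57 and 7.63 to 6.10 and 6.11 at 4 h and 4.39 and 4.52 at 8 h and stood at 4.34 and 4.36 at 24 h, so that the 24 h fall (-3.25 ± 0.13) is a lower bound. Exo1 went from 6.97 and 6.99 to 5.42 and 5.52 at 4 h and ended below the dim level too, at 4.04 and 3.88. In C57BL/6 cells Exo1 was the gene with the deepest 4 h fall at 5 ng/ml, from 7.25 and 7.56 to 6.11 and 5.76 (-1.47 ± 0.16). Tipin, a fork protection protein, changed the least, from 7.35 and 7.31 to 5.32 and 5.57 at 8 h and 5.68 and 6.23 at 24 h in BALB/c cells (-1.38 ± 0.20).

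**Figure D3:**
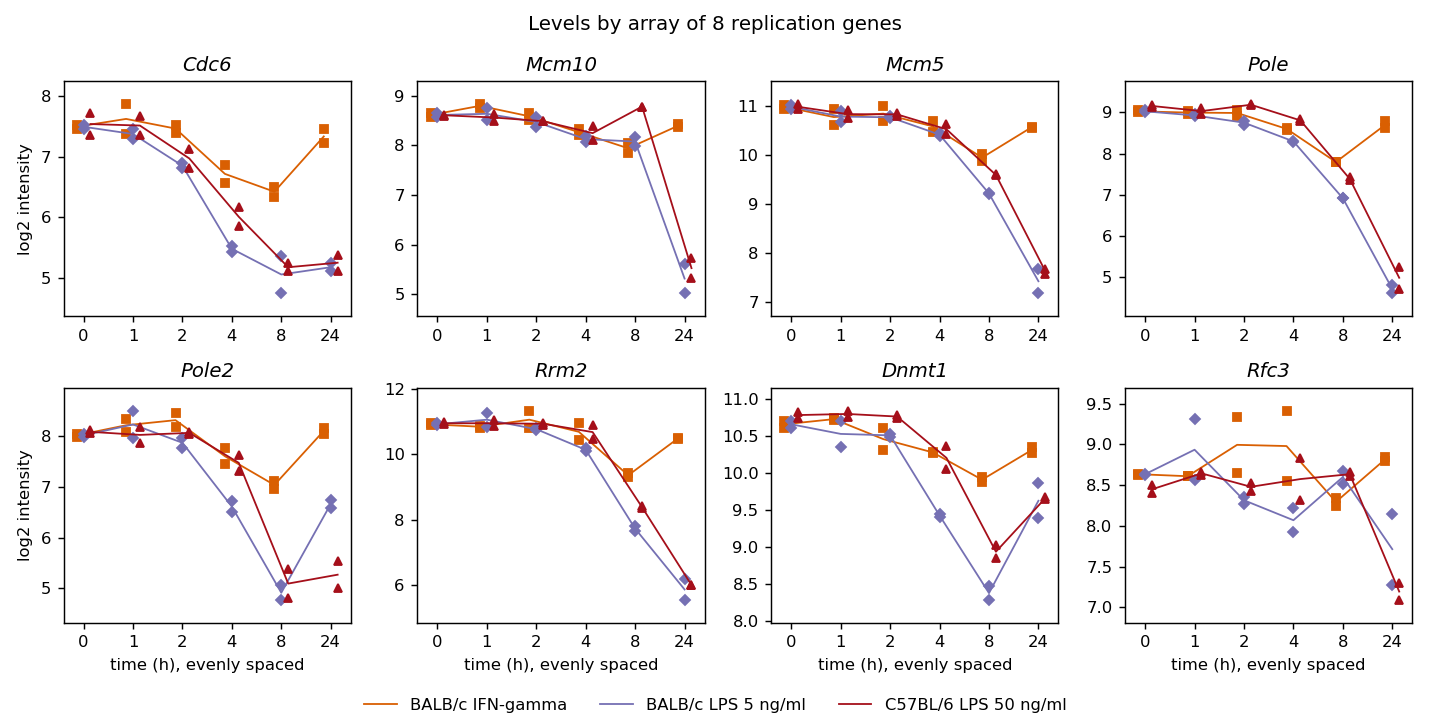
Level (log2 intensity, one point per array, lines through the means of the 2 wells) of Cdc6, Mcm10, Mcm5, Pole, Pole2, Rrm2, Dnmt1 and Rfc3 from 0 to 24 h (evenly spaced) under IFN-gamma and LPS 5 ng/ml in BALB/c cells and LPS 50 ng/ml in C57BL/6 cells. Under LPS Cdc6 levels off after 4 to 8 h, Mcm10 falls after 8 h and Dnmt1 turns upward after 8 h. Under IFN-gamma the wells of Cdc6 and Mcm10 lie higher at 24 h than at 8 h. The wells of Rfc3 spread widely within groups.

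The comparison of 24 h with 8 h asks whether the fall went on, and it uses no 0 h well. From 8 to 24 h of LPS 20 genes were called lower and 7 higher in BALB/c cells (11.3% and 15.0% of all genes), 31 and 3 at 50 ng/ml (11.4% and 15.7%), 27 and 4 at 5 ng/ml (10.8% and 15.5%) and 30 and 2 at 0.5 ng/ml (7.30% and 9.88%) in C57BL/6 cells. Without the well that carries BALB/c markers the 5 ng/ml counts were 27 and 3. These 4 courses share no array at those times. In all 4 of them 17 genes were called lower: Orc1, Mcm3, Mcm4, Mcm5, Mcm6, Mcm10, Cdc45, Pole, Pcna, Rfc5, Rpa2, Lig1, Rrm1, Rrm2, Tk1, Chaf1a and Uhrf1. All 17 were called at 5 ng/ml without the well that carries BALB/c markers too. Dnmt1 was the single gene called higher in at least 3 and lower in none. Cdt1, Cdc7, Rpa1 and Brca1 were called in different directions in different courses: Rpa1 rose by 0.37 in BALB/c cells (adjusted p = 0.013) and fell by 0.66 at 50 ng/ml in C57BL/6 cells (adjusted p = 1.3e-05). Chaf1b, Chek1 and Tipin were called in none. Of the fall measured at 24 h, the median gene had completed 85.0% by 8 h in BALB/c cells and 66.8%, 72.6% and 66.2% from the highest to the lowest dose in C57BL/6 cells (70.5% at 5 ng/ml without the well that carries BALB/c markers). The 24 h level was the lowest of the course for 28 of 45 genes in BALB/c cells and for 37, 36 and 41 in C57BL/6 cells.

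**Figure D4:**
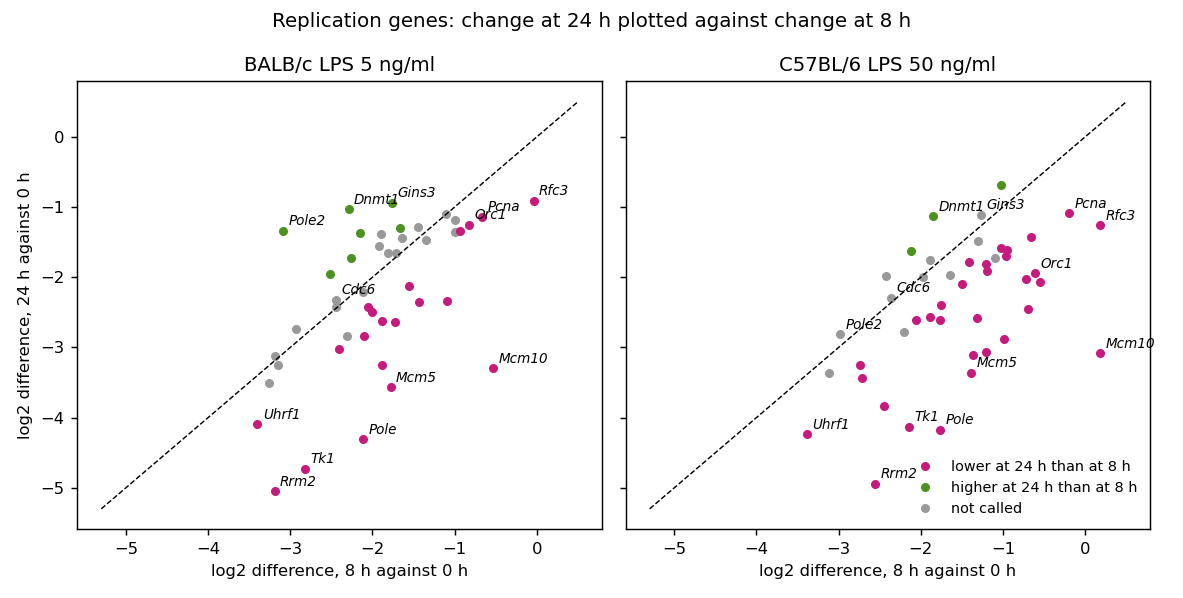
Log2 difference from 0 h at 24 h (vertical axis) against that at 8 h (horizontal axis), one point per gene, in BALB/c cells at LPS 5 ng/ml and C57BL/6 cells at 50 ng/ml, coloured by the call of 24 h against 8 h; the dashed line marks equal differences. Both axes share the 0 h wells. Mcm10, Pole, Rrm2 and Tk1 lie well below the line, and Pole2 and Dnmt1 lie above it in BALB/c cells.

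The dose of LPS was compared in C57BL/6 cells at matching times, which again uses no 0 h well. At 8 h 50 ng/ml gave lower levels than 0.5 ng/ml for 17 genes and higher levels for 3 (10.3% and 7.16% of all genes), with a median of -0.34. Uhrf1 read 6.08 and 6.43 against 7.61 and 7.54 (-1.32 ± 0.15, adjusted p = 1.3e-08). Pole2 differed by -1.04. Cdc7 and Exo1 differed by -1.15 and -1.13, which are lower bounds in size, since their 8 h means at 50 ng/ml lay under the dim level. The order was turned for Cdt1, at 9.35 and 9.36 against 8.38 and 8.57 (0.88 ± 0.12, adjusted p = 1e-06). It was turned for Mcm10 and Mcm6 too (0.66 and 0.47), which at 8 h read lower at the lowest dose. At 8 h of 50 ng/ml Mcm10 was not called against 0 h. Without replicate 1 of the 50 ng/ml 8 h wells 13 genes were called in place of 20.

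At 24 h 16 genes were lower at 50 than at 0.5 ng/ml and 0 higher (4.31% and 1.85% of all genes), with a median of -0.45. The largest of these differences belonged to Rrm2 (-1.44 ± 0.22, adjusted p = 1.9e-05), Uhrf1 (-1.27), Pole2 (-1.09) and Mcm7 (-1.01). The Rrm2 wells read 6.00 and 6.00 at 50 ng/ml and 7.69 and 7.18 at 0.5 ng/ml. The well at 7.69 is replicate 1, in which Hal read high. With the set of 11 arrays as a covariate Uhrf1 had the largest difference (-1.34). Without replicate 2 of the 50 ng/ml 24 h wells 10 genes were called, and without replicate 1 of the 0.5 ng/ml wells, in which Hal read high, 17. Cdt1, whose doses differed at 8 h, read 8.76 and 8.87 at 50 ng/ml and 9.06 and 8.88 at 0.5 ng/ml by 24 h, a difference of -0.16 with a 95% interval of -0.41 to 0.09. The fall was ordered by dose, deepest at 50 and shallowest at 0.5 ng/ml, for 31 of 45 genes at 24 h, and for 24 at 24 h without the well that carries BALB/c markers. The earlier counts were 24 at 8 h, 13 at 4 h, 11 at 2 h and 28 at 1 h, when the medians were -0.03, 0.06 and 0.17 from the highest to the lowest dose.

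The doses of 50 and 5 ng/ml differed little. At 8 h 0 of 45 genes were called between them by limma (4 at an unadjusted p under 0.05, and 0.383% of all genes lower and 0.345% higher), with a median of -0.04. Rrm2 differed by -0.15 with a 95% interval of -0.59 to 0.29, and Cdt1 by 0.42 with an interval of 0.17 to 0.68. At 24 h Mcm7 (-0.71) and Pola1 (-0.78) were called lower at 50 ng/ml (0.207% of all genes), but without the well that carries BALB/c markers neither was called, and the median moved from -0.21 to -0.07. The count was 11 without the other 5 ng/ml well and 1 without either 50 ng/ml well. Between 5 and 0.5 ng/ml 17 genes were lower and 2 higher at 8 h (7.39% and 5.28% of all genes), led by Uhrf1 (-1.15) and Pole2 (-1.10), and Cdt1 and Mcm10 were again the 2 higher. The count fell from 19 to between 9 and 12 when any 1 of the 4 wells was left out. At 24 h 4 genes were lower at 5 than at 0.5 ng/ml (Mcm4, Pole2, Lig1 and Uhrf1, 1.31% of all genes), and 11 without the well that carries BALB/c markers. It was 0 without the other 5 ng/ml well, and 1 and 2 without replicates 1 and 2 of the 0.5 ng/ml wells.

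**Figure D5:**
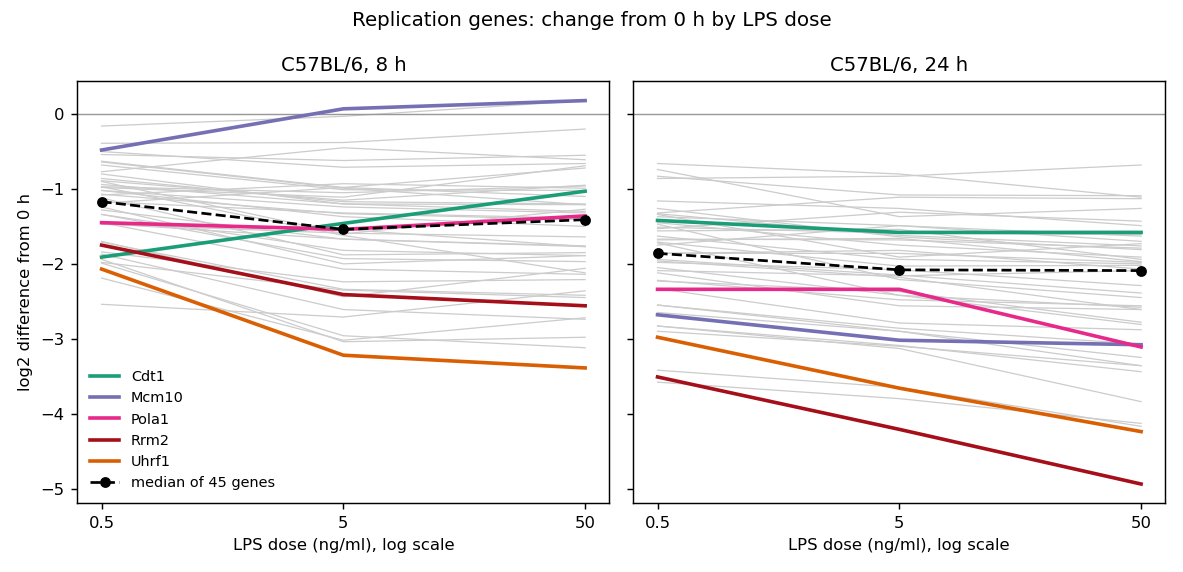
Log2 difference from 0 h of the 45 genes at 8 h and 24 h in C57BL/6 cells against the LPS dose (0.5, 5 and 50 ng/ml, log scale), one grey line per gene, with 5 genes in colour and the median dashed. At 24 h the lines of Rrm2 and Uhrf1 descend with dose, and at 8 h those of Cdt1 and Mcm10 ascend.

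Under both interferons most replication genes were called lower at 8 h, by less than under LPS, and under IFN-gamma the median had come back most of the way at 24 h. Under IFN-beta 0 genes were called at 1 h by limma (2 at an unadjusted p under 0.05, with 0.0903% of all genes lower and 1.08% higher), 1 at 2 h (Exo1, -0.54, 1.09% of all genes), 39 at 8 h (11.1%) and 34 at 24 h (5.97%), with medians of -0.88 at 8 h and -0.68 at 24 h. Under IFN-gamma 0 were called at 1 and 2 h (1 and 5 at an unadjusted p under 0.05, with 0.165% and 0.871% of all genes lower and 1.05% and 1.88% higher), 18 lower and 1 higher at 4 h (6.84% and 6.09%), 39 lower at 8 h (8.48%) and 12 lower and 1 higher at 24 h (8.40% and 6.48%), with medians of -0.36, -0.94 and -0.28. Both 0 h wells and both IFN-gamma 24 h wells were needed for the last count, which was 3 to 5 without any 1 of them. The IFN-gamma 4 h count was 10 without replicate 1 of the 0 h wells and also without replicate 2 of the 4 h wells.

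Rrm2 fell and came back by more than the median gene. It stood at 10.94 and 10.89 at 0 h, 9.03 and 9.14 at 8 h of IFN-beta and 9.41 and 9.30 at 8 h of IFN-gamma, falls of 1.83 ± 0.22 and 1.55 ± 0.22, and at 24 h it read 9.60 and 10.21 under IFN-beta and 10.49 and 10.46 under IFN-gamma. Between 8 and 24 h Rrm2 rose by 0.82 (adjusted p = 0.0062) and by 1.12 (adjusted p = 0.00057). The medians over the 45 genes were 0.18 and 0.61. The IFN-beta 24 h well at 10.21 belongs to the set of 11 arrays. In that set Rrm2 was higher in 8 of the 9 split groups, by 0.40 on average. Tk1, at -1.47 and -1.48 at 8 h, was still at -1.40 and -0.97 at 24 h. From 8 to 24 h 28 genes rose and 0 fell under IFN-gamma (3.33% and 2.60% of all genes), led by Chaf1b (1.17) and Mcm7 (1.14), while 15 rose and 3 fell under IFN-beta (8.81% and 7.09%). The IFN-beta count of 18 was 4 without replicate 1 of the 8 h wells and 6 without replicate 2 of the 24 h wells. Pcna was called in neither interferon course at 8 h, at 12.41 and 12.43 under IFN-beta and 12.48 and 12.54 under IFN-gamma.

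At 4 h of IFN-beta 21 genes were lower and 2 higher (15.1% and 9.65% of all genes). The 2 were Rfc3, at 9.65 and 9.75 against 8.64 and 8.63 (1.07 ± 0.28), and Mcm10, at 9.15 and 9.01 against 8.57 and 8.65 (0.48 ± 0.15). Both 4 h wells belong to the set of 11 arrays. With that set as a covariate Rfc3 came to 0.33 (adjusted p = 0.031) and Mcm10 to 0.64 (adjusted p = 0.0017), and 24 genes were lower. Pola2 was the single gene that rose under IFN-gamma: 10.04 and 10.06 at 4 h and 10.03 and 10.07 at 24 h lay above 9.76 and 9.74 at 0 h (0.30 ± 0.09 at both times, adjusted p = 0.028 and 0.024), and it read 9.87 and 10.10 at 1 h and 9.78 and 9.78 at 8 h. Without 5 arrays that, beyond the difference of the set of 11, differed from their replicate by over 1.5 at 10 or more genes, 1 of the 4 h wells among them, its 4 h difference was 0.29 and did not pass the test (adjusted p = 0.077).

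Compared with each other, the interferons differed at few genes until 24 h. At 8 h 2 genes were lower and 4 higher under IFN-beta than under IFN-gamma (4.10% and 4.30% of all genes). Mcm6, a helicase ring subunit, read 9.63 and 9.86 under IFN-beta and 8.74 and 8.67 under IFN-gamma (1.04 ± 0.16, adjusted p = 1.1e-05), against 10.06 and 9.90 at 0 h. Pola2 went the other way, at 9.25 and 9.27 against 9.78 and 9.78 (-0.52 ± 0.09). The count of 6 was 2 or 3 when any 1 of the 4 wells was left out. At 24 h 19 genes were lower under IFN-beta and 0 higher (4.87% and 5.61% of all genes), with a median of -0.40. Chaf1a, at 7.37 and 7.16 under IFN-beta against 7.99 and 8.18, differed by -0.82 ± 0.18, and Pola2 by -0.72 ± 0.09 (adjusted p = 3.4e-07). The well at 7.16 belongs to the set of 11 arrays, in which Chaf1a was lower in each of the 9 split groups (mean -0.41). With that set as a covariate the largest difference was that of Gins1 (-0.79). The 24 h count was 12 without replicate 1 of the IFN-beta wells, and 11 and 12 without replicates 1 and 2 of the IFN-gamma wells. LPS stood below both: at 24 h all 45 genes were higher under IFN-beta than under LPS 5 ng/ml in BALB/c cells (14.3% of all genes, median 1.34) and all 45 higher under IFN-gamma (14.2%, median 2.05), and at 8 h 39 were in each case (15.2% and 16.6%). The gap was widest for Rrm2, at 4.04 and 4.61.

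The strains were compared at the matching dose of 5 ng/ml. At 0 h 0 of 45 genes differed by limma (6 at an unadjusted p under 0.05, with 4.09% of all genes lower and 5.49% higher in BALB/c cells), and the median difference was 0.00. The change from 0 h was then set against that of the other strain. At 1 and 2 h 0 genes were called (6 and 13 at an unadjusted p under 0.05, with 0.292% and 0.436% of all genes lower and 2.36% and 1.82% higher). At 4 h the change was lower in BALB/c cells for 9 genes and higher for 0 (2.00% and 3.95% of all genes), with a median of -0.48. The 9 were Cdt1, Mcm2, Mcm3, Mcm7, Lig1, Chaf1b, Dnmt1, Brca1 and Clspn. Chaf1b fell in BALB/c cells only, and its change in C57BL/6 cells was 0.27. Clspn read 6.10 and 6.11 in BALB/c cells at 4 h and 6.91 and 7.01 in C57BL/6 cells, and the changes differed by -0.79 ± 0.18 (adjusted p = 0.0036). Dnmt1 read 9.45 and 9.40 against 10.27 and 10.30 (-0.74 ± 0.17). In both cases the wells of the strains did not overlap. The count of 9 was 3 to 5 without either BALB/c 0 h well, replicate 2 of the BALB/c 4 h wells, replicate 1 of the C57BL/6 0 h wells or either C57BL/6 4 h well, and 22 with the set of 11 arrays as a covariate.

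At 8 h 4 genes differed, all lower in BALB/c cells (2.56% of all genes, 2.84% higher): Chaf1b, at 6.62 and 6.53 against 7.95 and 7.92 (-1.34 ± 0.24, adjusted p = 0.00019), Mcm6 (-1.12 ± 0.23), Lig1 (-0.95 ± 0.14, adjusted p = 9.2e-06) and Mcm7 (-0.91 ± 0.17). At 24 h the median difference of the changes was -0.07. Chaf1b (-1.08) and Mcm6 (-0.81) were still lower in BALB/c cells and Pole2 was higher (1.80% and 1.89% of all genes), at 6.59 and 6.73 against 5.48 and 5.84 (1.07 ± 0.27, adjusted p = 0.014). Without the C57BL/6 well that carries BALB/c markers the calls were Chaf1b (-1.02) and Pole2 (1.25), and the median was 0.06. The 24 h levels themselves were lower in BALB/c cells for 8 genes and higher for 4 (4.25% and 5.30% of all genes), and for 2 and 4 without that well. Rrm2 differed by -0.87 ± 0.22 with it and by -0.47 without it, and Pole2 by 1.00 and 1.18. The count of 3 was 1 without replicate 2 of either strain's 0 h wells and 7 without replicate 1 of the C57BL/6 24 h wells.

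Related genes outside the 48 were counted in 3 further lists. Of 27 fork accessory genes (origin and clamp loader subunits, fork protection factors) 20 were called lower and 0 higher at 8 h of LPS in BALB/c cells, with a median of -1.10 (21.1% and 13.7% of all genes), and 17 and 2 at 24 h (17.4% and 15.3%). Ticrr, which helps to fire origins, fell by 4.15 at 24 h, while the origin subunit Orc4 rose by 0.89. Of 16 further genes of nucleotide metabolism 13 fell and 2 rose at 8 h, against the same shares of all genes. Among them Dctd, dCMP deaminase, fell by 2.40 and Samhd1, which breaks deoxynucleotides down, rose by 1.44. Samhd1 also rose by 1.40 under IFN-beta and by 1.52 under IFN-gamma at 8 h. Of 15 genes that control S phase 14 fell and 1 rose at 24 h of LPS in BALB/c cells (17.4% and 15.3% of all genes), led by Ccna2, cyclin A2, at -6.30, and in C57BL/6 cells at 50 ng/ml 14 fell and 0 rose (15.1% and 13.8%), with Ccna2 at -5.79.

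The 16 genes with an E2F motif match and the 22 measured genes with a matched promoter and no match are set side by side here as a description. Their medians were -2.27 and -1.93 at 24 h of LPS in BALB/c cells and -2.34 and -2.02 at 50 ng/ml in C57BL/6 cells. At 8 h of LPS they were -2.11 and -1.69 in BALB/c cells. In C57BL/6 cells at 8 h they were -1.58 and -1.31, -1.64 and -1.22, and -1.37 and -0.97 from the highest to the lowest dose. Under IFN-beta they were -0.88 and -0.88 at 8 h and -0.67 and -0.69 at 24 h. Under IFN-gamma they were -1.06 and -0.86 at 8 h and -0.25 and -0.28 at 24 h. Rrm2, with the largest mean fall at 24 h over the 4 LPS courses, holds no match in this window.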

How the data were processed

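The deposited table holds linear intensity values for 35556 Affymetrix probe sets on 64 arrays, made by the authors with Affymetrix Expression Console 1.1, per the submitters' processing notes. The normalisation is not given in the sources used here. Per the labels, 250 ng of total RNA was amplified with the Ambion WT Expression kit. No column was left without a sample.

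The log2 of each deposited intensity was taken. Probe sets with 1 gene symbol (21218) were used, and several (1881) or no symbol (12457) were left out. The brightest probe set stood for each of 18820 genes. Limma 3.58.1 in R 4.3.3 fitted all 64 arrays with 32 group means and 32 residual degrees of freedom, with Benjamini-Hochberg adjustment over every gene tested. The fit was tested on simulated data. The dim level, 4.49, is the 40th percentile of the log2 values. Arrays carry no counts, so their number limits the precision.

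The members and all lists were chosen with earlier results of these data known. Well values are given for the 2 members of each role with the largest and the 1 with the smallest mean change at 24 h of LPS, and for members called against the general direction. Values of other members were chosen after being seen. Taken over all groups, replicate numbers did not pair the wells: over 496 pairs of groups the median correlation of deviations was 0.00 (-0.47 to 0.55). In the groups split by the set of 11 arrays, the array of that set was replicate 2 in all but IFN-gamma at 4 h. Alternatives covered scaling, filters, probe sets, array set, arrays left out and the size of change. Those at 4 h, and the omission of the C57BL/6 well with BALB/c transcripts, were added after seeing the data.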

Additional observations from a re-analysis of the deposited data

Results flagged for a closer look

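The change under LPS 5 ng/ml differed between the strains by the test of the difference itself, BALB/c minus C57BL/6. At 4 h 9 genes differed, all lower (2.00% of all genes, 3.95% higher), among them Clspn (-0.79), Dnmt1 (-0.74), Mcm7 (-0.63) and Lig1 (-0.47). At 8 h 4 genes differed, among them Lig1 (-0.95) and Mcm7 (-0.91), and at 24 h 3 genes differed.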

How the results depend on the processing

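Counts are of the 45 genes called, and the cause of each change was not tested. With a replicate block no count moved by over 1.5 times (40 of 40; IFN-gamma at 24 h stayed at 13), nor with probe sets of a gene averaged (40 of 40) or 1 h in place of 0 h (12 of 12). Centring each array gave 5 in place of 13 for IFN-gamma at 24 h, 1 for 50 against 5 ng/ml at 24 h and 1 between strains at 0 h. Quantile normalisation gave 1 for 50 against 5 ng/ml at 8 h, 1 between strains at 0 h and 5 for the strain difference at 24 h. That last count was 7 with the dim filter and 6 with limma's trend and robust options. With the array set as a covariate the counts were 20 and 29 for IFN-gamma at 24 and 4 h, 8 for 0.5 ng/ml at 4 h, 10 and 29 between interferons at 8 and 24 h, 31 for 50 against 0.5 ng/ml at 8 h, 1 and 4 for 50 against 5 ng/ml at 8 and 24 h, and 22, 12 and 6 for the strain difference at 4, 8 and 24 h. Without the 5 arrays that stood apart they were 0 for 50 against 5 and 12 for 5 against 0.5 ng/ml at 24 h, and 14 and 12 for the strain difference at 4 and 8 h.

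Fitting only the arrays compared gave 15 for IFN-beta at 24 h, 9 for IFN-gamma at 4 h and 8 for 50 ng/ml at 4 h. From 8 to 24 h it gave 3 for IFN-beta, 14 for IFN-gamma and 15 for BALB/c LPS. It gave 0 between interferons at 24 h, 4 for 50 against 0.5 ng/ml and 0 for 50 against 5 ng/ml at 24 h, 10 and 0 for 5 against 0.5 ng/ml at 8 and 24 h, and 16, 11 and 1 for the strain difference at 4, 8 and 24 h, the last with the opposite median sign.

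Requiring a change of 1 on the log2 scale gave 19 and 6 for IFN-beta and 18 and 0 for IFN-gamma at 8 and 24 h, and 28 for 0.5 ng/ml at 8 h. From 8 to 24 h it gave 0 for IFN-beta, 6 for IFN-gamma, 9 for BALB/c LPS and 15, 13 and 11 from the highest to the lowest C57BL/6 dose. It gave 1 and 0 between interferons, 23 and 28 for IFN-beta against LPS at 8 and 24 h, 18 for IFN-gamma against LPS at 8 h, 4 and 4 for 50 against 0.5 ng/ml, 0 for 50 against 5 ng/ml at 24 h, 2 and 0 for 5 against 0.5 ng/ml, and 2 for the strain difference at 8 h.

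Leaving out 1 array gave 3 to 5 for IFN-gamma at 24 h and 10 to 16 at 4 h. It gave 8 to 15, 12 to 17 and 1 to 2 at 4 h from the highest to the lowest C57BL/6 dose, and 4 to 14 for IFN-beta from 8 to 24 h. Between interferons it gave 2 to 3 at 8 h, with the median turned in 3 cases, and 11 to 16 at 24 h. It gave 13 to 17 and 10 to 17 for 50 against 0.5 ng/ml at 8 and 24 h, 0 to 11 for 50 against 5 ng/ml at 24 h, 9 to 12 and 0 to 11 for 5 against 0.5 ng/ml, and 3 to 7 and 1 to 7 for the strain difference at 4 and 24 h. Among single genes Pcna at 8 h of IFN-beta turned to 0.04 with centring and Pola2 at 8 h of IFN-gamma to -0.20 with 1 h as baseline. With 2 wells a group, differences near the spread between wells cannot be resolved.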
